A study of Mus musculus with 34 samples.

Results

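Open chromatin away from promoters can be found without the histone mark of active enhancers and without reporter activity. In activated mouse B cells such regions were the most numerous distal kind over the whole peak list, though not near its start. They were taken from peaks of FAIRE-seq, which recovers nucleosome-poor DNA from crosslinked chromatin. A FAIRE peak was a member when it lay more than 1 kb from every H3K4me3 peak of activated cells. It also had to overlap no H3K27ac peak and no STARR-seq peak of activated cells. This rule gave 19989 regions of 55126 distinct FAIRE peaks (36.3%). These 3 sets of peaks chose the regions, so the lack of both marks and of reporter activity is no finding. They are called unmarked distal regions here, for these 2 marks only, since H3K4me1 was not analysed here.

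H3K4me3 is placed at active promoters, and H3K27ac at active promoters and enhancers. STARR-seq puts open DNA fragments into a reporter plasmid, where an active enhancer drives its own transcription. Open distal regions that lack acetylation are known to include enhancers that are poised or used in other states of the cell, silencers, and sites bound by CTCF, which shapes chromatin loops. The data here do not sort the regions into these kinds. A region without a STARR peak is a region where no peak was called. The plasmid library samples were not analysed here, so how well each region was represented in the reporter is not known.

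The cells were splenic B cells of the CD43-negative fraction from C56BL/6J mice, the strain as spelled in the labels, aged 6 to 8 weeks. Activated cells had spent 3 days in culture with LPS, lipopolysaccharide from the bacterial outer membrane, at 10 µg per ml. For STARR-seq they were transfected and held the reporter for the last 12 or 24 h of that culture. The STARR peak list does not separate these times. Resting B cells were the controls, and were grouped by source name, because their protocol fields carry the same LPS text as the activated samples. RNA-seq covered 2 activated and 2 resting samples. Each peak list and the list of Hi-C contacts came once for activated cells, so values on regions have no replicates. Whether the RNA replicates are separate animals or cultures is not stated in the labels, and a p-value reflects how far these libraries scatter, and that scatter may be technical.

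All 8 B cell marker genes on a list of markers were detected in every RNA sample, with a summed level of 10900 and 12100 FPKM (a read count divided by transcript length and library size) in resting and 5510 and 4240 FPKM in activated samples. Markers of other cell types were present in the resting samples. The 9 matched myeloid markers summed to 387 and 737 FPKM in resting and 2.88 and 9.35 FPKM in activated samples, with C1qa and C1qb listed at 0 in both activated samples. The 6 rows of erythroid markers summed to 1030 and 8630 FPKM in resting against 12.1 and 5.31 FPKM in activated samples. For T cell markers the sums were 23.1 and 31.9 against 2.72 and 1.79 FPKM, and for NK cell markers 6.67 and 22.2 against 1.01 and 0.392 FPKM. Endothelial and stromal markers summed to 67.9 and 55.7 against 25.8 and 17.7 FPKM. Nearly all of this was Pecam1, which is also made by leukocytes, at 67.2 and 55.1 against 25.2 and 17.4 FPKM. The other markers of that list were under 1 FPKM in every sample. In these bulk samples fewer cells of a type and less RNA per cell cannot be told apart.

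The first question was where the regions lie. Of the unmarked distal regions 10706 (53.6%) overlapped a gene locus, the stretch from the first to the last base of a gene in the RNA table, while gene loci covered 977 of 2580 Mb (37.9%) of the chromosomes' span. By chromosome the share inside a gene ran from 48.5% on chromosome 8 to 59.0% on chromosome 14. Exons and introns could not be separated, because only loci were given. The share was 55.2% for distal FAIRE peaks with H3K27ac alone, 44.0% for those with STARR activity alone, 46.3% for those with both and 71.2% for FAIRE peaks within 1 kb of H3K4me3. The share of the unmarked regions was above that of the STARR-only regions on 20 of 20 chromosomes, by a median of 10.1 percentage points. Against the regions with H3K27ac alone it was higher on 11 of 20 chromosomes, by a median of 1.21 points.

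Split by distance, 337 regions (1.69%) lay within 1 kb of a known gene start and 587 (2.94%) within 1 kb of a known gene end. Another 10146 (50.8%) lay elsewhere inside a gene. A further 3513 (17.6%) were up to 10 kb outside the nearest gene, 3506 (17.5%) were 10 to 50 kb away, 958 (4.79%) were 50 to 100 kb away and 942 (4.71%) were more than 100 kb away. Outside genes the median distance to the nearest gene was 13930 bases, with quartiles of 4708.5 and 40028.5 bases. Gene starts and ends were known for the 16630 of 23812 gene rows (69.8%) whose strand was found. Counts at starts and ends are thus lower limits, and those elsewhere inside or up to 10 kb outside are upper limits. The 337 regions at gene starts are few because the rule removed regions near H3K4me3, while 43.7% of the FAIRE peaks near H3K4me3 lay at a gene start.

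**Figure D1:**
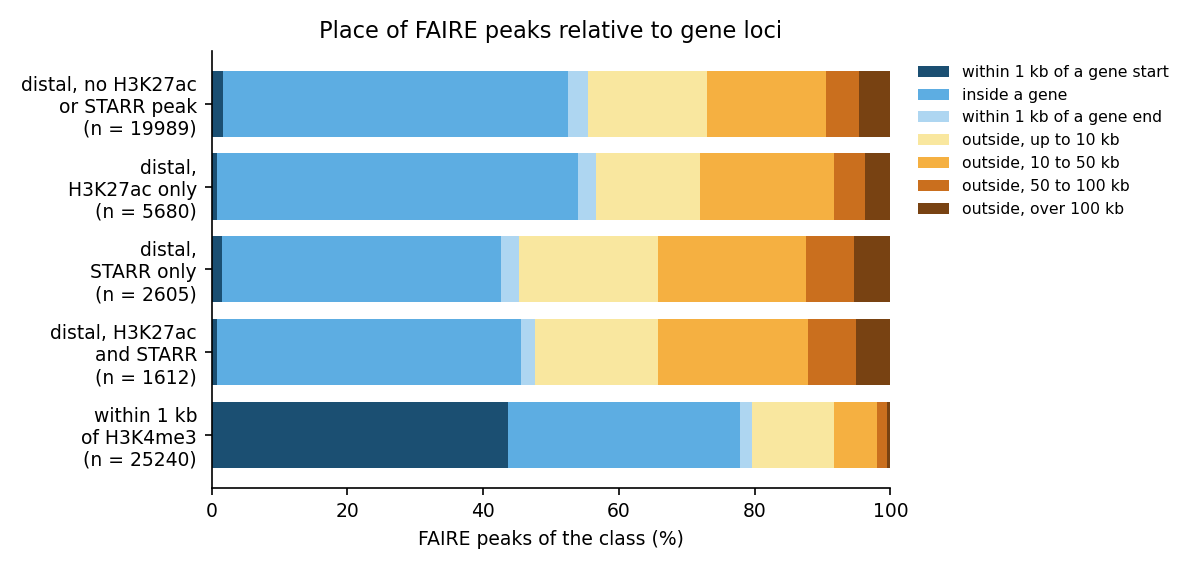
Share of FAIRE peaks (horizontal axis, %) by place relative to gene loci, for the unmarked distal regions in the top bar and the other 4 classes of FAIRE peaks below. Blues are gene starts, gene bodies and gene ends, and yellow to brown are distances outside genes. The top bar has 50.8% inside a gene against 41.1% for STARR-only regions.

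Each stranded locus of 10 kb or more was cut into 5 equal parts from start to end. The 7683 unmarked regions inside such loci were spread almost evenly, with 19.5%, 21.2%, 19.5%, 19.5% and 20.3% in parts 1 to 5. For regions with H3K27ac alone the same shares were 15.4%, 24.3%, 23.3%, 19.7% and 17.3%, with the most in parts 2 and 3. FAIRE peaks near H3K4me3 had 71.4% in part 1. Outside genes, 49.5% of the 2856 unmarked regions within 10 kb lay on the upstream side of the nearest gene, and 57.4% of the 3957 regions farther out did. For regions with H3K27ac alone these shares were 47.2% and 57.3%.

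Density inside genes rose with the RNA level of the gene. Unmarked regions numbered 2.42 per Mb in the loci of 7128 genes listed at 0 in all 4 RNA samples. They numbered 6.10 per Mb where the mean over the 4 samples was above 0 and under 1 FPKM and 13.6 per Mb at 1 to 5 FPKM. The density was 18.4 per Mb at 5 to 20 FPKM and 26.9 per Mb at 20 FPKM or more. All other classes rose too across these 5 levels, from 0.215 to 12 per Mb for H3K27ac alone, from 0.25 to 2.15 for STARR alone and from 0.724 to 69.0 near H3K4me3. Of the open regions in genes listed at 0, the unmarked class was the largest, with 495 regions against 44 with H3K27ac alone, 51 with STARR alone, 18 with both and 148 near H3K4me3. Each region was counted once, and loci that overlap were both counted in the length.

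**Figure D2:**
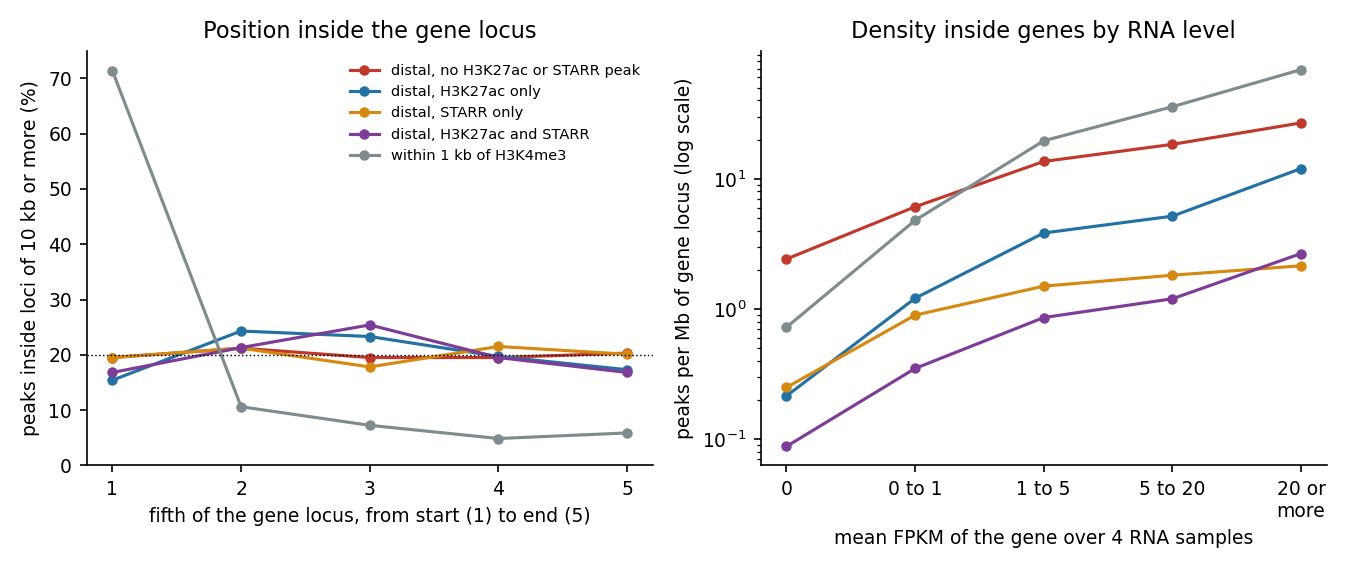
Left, share of peaks inside gene loci of 10 kb or more (%) in each of 5 equal parts of the locus from start to end, by class, with an even spread dotted. Right, peaks per Mb of gene locus on a log axis against the mean FPKM of the gene over 4 RNA samples, where unmarked distal regions (red) go from 2.42 to 26.9 per Mb.

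The 337 regions at a gene start belonged to 336 genes, of which 6 had an H3K4me3 peak within 1 kb of the annotated start. Of these genes 199 (59.2%) were under 1 FPKM in all 4 samples, against 52.4% of all genes. Their median level was 0.209 and 0.227 FPKM in resting and 0.118 and 0.108 FPKM in activated samples. A total of 121 passed the filter for testing, a value of at least 1 FPKM in at least 2 samples. Of all 10863 genes tested with limma, 28.2% were called higher and 26.2% lower in activated cells (adjusted p under 0.05, Benjamini-Hochberg over all genes). Among the 121 genes 26 (21.5%) were called higher and 50 (41.3%) lower, given as a description. These genes were chosen by an open start without H3K4me3 in activated cells and could pass the filter through the resting samples alone, so nothing is read from the difference.

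The next question was how the regions are spaced. The median gap from an unmarked region to the nearest other one was 12906 bases, with quartiles of 3562 and 36082 bases. To the nearest FAIRE peak of any class it was 5409 bases. Within 1 kb of another unmarked region lay 10.9%, and 8.16% had none within 100 kb. The median distance was 12740 bases to an H3K27ac peak, 20368 bases to an H3K4me3 peak and 20331 bases to a STARR peak, the 3 lists that the rule used. At the edge of the rule, 152 members were 1001 to 1100 bases from H3K4me3, and 121 peaks with neither H3K27ac nor STARR were left out at 901 to 998 bases. A further 394 members had an H3K27ac peak within 100 bases and 129 a STARR peak within 100 bases.

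**Figure D3:**
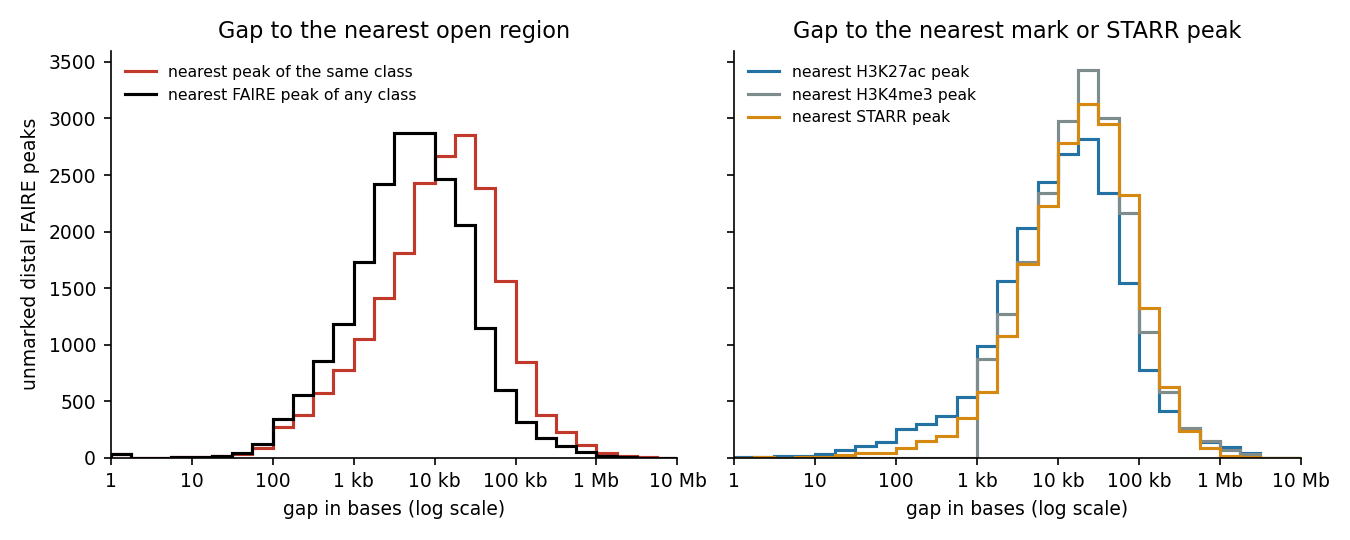
Number of unmarked distal regions (vertical axis) by gap in bases on a log axis. Left, gap to the nearest region of the same class (red, median 12906 bases) and to any FAIRE peak (black, median 5409 bases). Right, gap to the nearest H3K27ac, H3K4me3 and STARR peak, where the H3K4me3 curve begins at 1 kb by the rule.

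Regions were joined into runs wherever the gap was under a set limit, a little below the median gap of 12906 bases, which gave 13797 runs. Of these 10145 were single regions, which is 50.8% of the class. There were 260 runs with 5 or more regions, holding 1742 regions, and 26 with 10 or more, holding 338. The run with the most regions had 34 in 85207 bases at chr8:126062576-126147782 (mm9). It held no gene and lay between Gas8, a gene for a protein of motile cilia, and Rhou, a gene for a small GTPase. The other 5 FAIRE peaks in that run were STARR-only regions, and none carried H3K27ac. Gas8, the nearest gene of 19 of the 34, had 0.982 and 1.04 FPKM in resting and 3.77 and 3.81 FPKM in activated samples (log2 change 1.25, SE 0.15, limma adjusted p = 0.000855). Rhou, nearest to the other 15, had at most 0.0917 FPKM in any sample and was not tested.

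The run with the next most regions lay inside Bank1, which encodes an adaptor protein of B cell receptor signalling, with 21 regions at chr3:135893665-135980858. Here the other 17 FAIRE peaks included 10 with H3K27ac alone, 3 with STARR alone, 3 with both and 1 near H3K4me3. The third run, of 17 regions at chr9:82751276-82820428, covered part of Phip, which encodes a bromodomain protein, and its end. Of these 17 regions 14 were inside Phip, and the other 2 FAIRE peaks of that run were STARR-only. So the run at Bank1 was mixed with acetylated regions, and those at Phip and between Gas8 and Rhou held none.

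The regions farthest from a gene or from another FAIRE peak were read singly. The region farthest from any gene, at chr2:99409840-99410140, was 1938018 bases from Lrrc4c, which encodes a synaptic adhesion protein and reached at most 0.0533 FPKM. A pair of regions at chr12:94625553-94625853 and chr12:94627575-94627875 lay 1537955 and 1539977 bases from Sel1l, a gene of protein degradation at the endoplasmic reticulum. These 2 were 1721 bases apart, and a STARR peak lay 53853 and 55875 bases from them. The most isolated region, at chr8:102216142-102216442, was 3776968 bases from the next FAIRE peak, with Cdh8, a neuronal cadherin gene, as its nearest gene. The region at chr15:47481193-47481493 lay inside Csmd3, with the next FAIRE peak 3017393 bases away. At chr6:78849993-78850293 the next FAIRE peak was 3023156 bases away, but a STARR peak lay within 18032 bases, nearer than the median of the class.

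Unmarked regions stood late in the FAIRE list as deposited, an order whose meaning the files do not give. With the list cut into 10 equal parts, they were 0.29% of part 1 (16 regions) and 60% of part 10 (3304 regions), and 74.9% stood after the middle of the list. FAIRE peaks near H3K4me3 made up 93.5% of part 1. In parts 1 and 2 every other distal class was larger than the unmarked one. Regions with both H3K27ac and STARR numbered 235 and 513 there. The share of unmarked regions inside a gene also changed along the list, from 42.2% in part 2 (225 regions) to 56.9% in part 10. Among chromosomes with at least 20 FAIRE peaks, which leaves out Y with 0 of 3, the unmarked share of FAIRE peaks ran from 21.4% on X to 43.3% on chromosome 1.

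Contacts between distant regions were taken from the deposited Hi-C list, which by its deposited name had been filtered for contacts of enhancers and promoters. The unmarked regions were chosen to lack STARR and H3K4me3 peaks, so their share in anchors is partly set by that filter and is a description only. In the list 27903 distinct contacts join 55788 distinct anchors of 500 to 5000 bases. An anchor overlapped 1832 of the unmarked regions (9.17%). The same was true of 19.2% of regions with H3K27ac alone, 58.0% with STARR alone, 79.4% with both and 69.1% of peaks near H3K4me3. Of the 3549 anchors with an unmarked region, 2512 also held a STARR peak and 1925 an H3K4me3 peak, and 533 held neither. Among anchors of 500 bases 0.314% held an unmarked region, and among those of 5000 bases 9.49%, so most of these overlaps came from wide anchors. Regions in an anchor had nearest genes at a median of 11.6 and 12.3 FPKM in resting and 11.8 and 11.9 FPKM in activated samples. Regions in no anchor had medians of 4.74, 4.94, 4.80 and 4.63 FPKM.

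RNA was not part of the rule, and the nearest gene of each region was read in all 4 samples. The 19989 regions had 8701 nearest genes, with medians of 3.23 and 3.37 FPKM in resting and 3.29 and 3.05 FPKM in activated samples. All 23812 genes had medians of 0.290, 0.332, 0.199 and 0.168 FPKM. Nearest genes of regions with H3K27ac alone stood higher, at 7.98, 8.09, 7.73 and 7.38 FPKM. Those of STARR-only regions were close to the unmarked ones, at 3.61, 3.79, 3.89 and 3.57 FPKM. So the genes near unmarked regions were above the median gene and below those near acetylated regions in every sample. Of the genes near unmarked regions 62% passed the filter for testing, against 45.6% of all genes. Among tested genes alone the medians were 10.4, 10.7, 10.5 and 10.8 FPKM, against 9.84, 10.3, 10.3 and 10.8 FPKM for all. In resting replicate 1 the median of a region's nearest gene was 6.77 FPKM for regions inside a gene, 4.64 FPKM up to 10 kb outside, 3.93 FPKM at 10 to 50 kb, 2.07 FPKM at 50 to 100 kb and 1.23 FPKM beyond. It was lowest, at 0.18 FPKM, for regions at a gene start, where the rule removed starts with H3K4me3.

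Of the 8701 nearest genes 5395 were tested. Between activated and resting cells 1498 of them (27.8%) were called higher and 1489 (27.6%) lower, close to the 28.2% and 26.2% of all genes tested, with a median log2 change of -0.001 against 0.03. The shares of the whole group were thus near the background in both directions. Without resting replicate 1 the counts were 864 (16.9%) higher and 685 (13.4%) lower, beside 16.9% and 12% of all genes tested in that fit. Without resting replicate 2 they were 1037 (20.3%) and 684 (13.4%), beside 20.8% and 11.6% of all genes. For nearest genes of regions with H3K27ac alone 26.9% were higher and 33.9% lower.

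The share of lower genes went up with the number of unmarked regions per gene. It was 24.8% of the 5468 tested genes with none, 24.8% with 1, 27.1% with 2, 30.9% with 3 to 4 and 31.5% with 5 to 9. Of the 154 tested genes with 10 or more, 63 (40.9%) were lower and 34 (22.1%) higher, with a median log2 change of -0.36. These 154 genes were also long, with a median locus of 122 kb against 20 kb for all genes tested. They were expressed more highly in resting cells, at medians of 14.7 and 15.1 FPKM against 9.84 and 10.3 FPKM, and 79.2% of them had a distal acetylated FAIRE peak as well. Among the 32 tested genes with 10 or more unmarked regions and no such acetylated peak, 8 (25%) were lower and 7 (21.9%) higher. The shares were close to this, 24.1% lower and 28.9% higher, in the 4963 tested genes with neither kind of region. At a mean level of at least 5 FPKM, 22 genes had 10 or more unmarked regions and no acetylated peak. Of these 7 (31.8%) were lower and 3 (13.6%) higher, against 20% and 32.2% of 3578 genes with neither kind. With an acetylated peak the lower share was 45.1% of 122 genes at 10 or more unmarked regions and 31.3% of 505 genes at none. By locus length, the lower share at 10 or more against none was 50% of 32 against 24.5% of 4961 genes under 50 kb, 38.5% of 122 against 27.8% of 507 genes at 50 kb or more, and 38.9% of 90 against 33.1% of 145 genes at 100 kb or more. Among genes with a mean level of at least 5 FPKM it was 46% of 124 against 21% of 3973. The part of locus length, level and acetylated peaks in the pattern was not tested. Without resting replicate 1 the count of 63 lower genes went to 34 (22.5%, beside 12% of all genes), and without resting replicate 2 to 40 (26.5%, beside 11.6%).

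**Figure D4:**
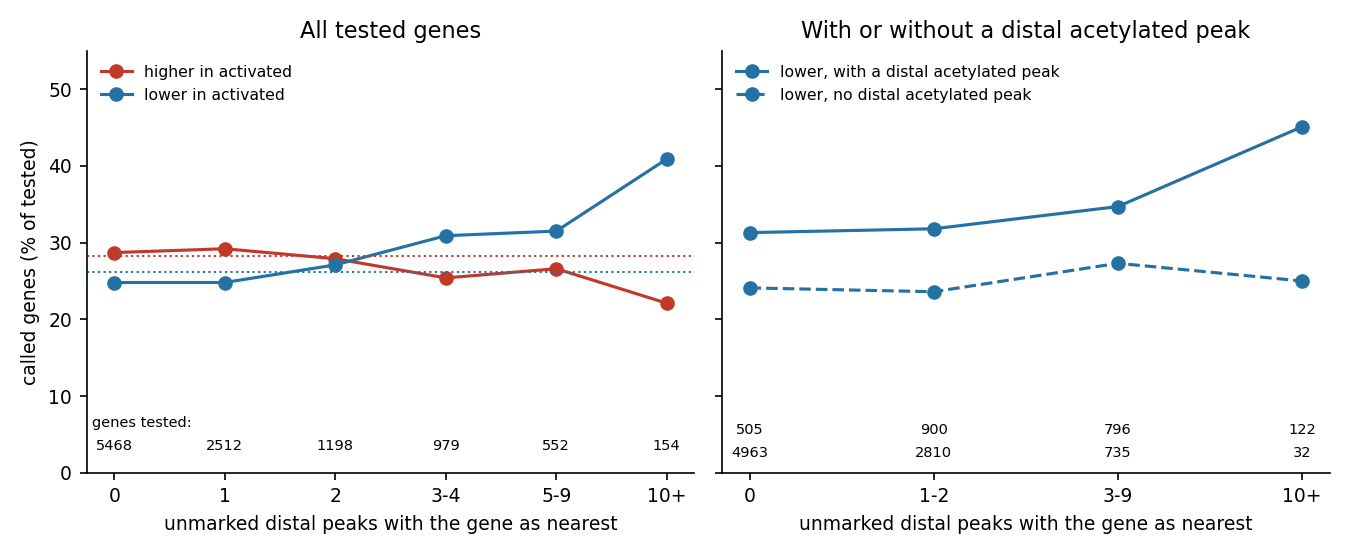
Share of tested genes called higher (red) or lower (blue) in activated cells by the number of unmarked distal regions that have the gene as nearest. Dotted lines are the shares of all tested genes (28.2% and 26.2%). The right panel splits the lower share by the presence of a distal acetylated FAIRE peak, with the number of tested genes printed below, and the dashed line of genes without such a peak ends at 25%.

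Among single genes, Mef2c had the most unmarked regions of any tested gene that could be named. Mef2c encodes a transcription factor used in B cell proliferation and survival, at chr13:83643033-83806684. It was the nearest gene of 44 regions, 17 inside the locus and 27 outside, as far as 688479 bases away, beside 21 acetylated distal peaks. Its RNA was 89.0 and 87.5 FPKM in resting and 62.5 and 57.0 FPKM in activated samples, and the groups did not overlap. The fall of 0.56 on the log2(FPKM + 1) scale (SE 0.18, limma adjusted p = 0.0378) lost its call without either resting replicate (adjusted p = 0.200 and 0.176) and without activated replicate 2 (0.0927).

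Rabgap1l, which encodes a GTPase-activating protein of membrane traffic, had the most regions inside its locus. The locus at chr1:162149305-162723069 spans 574 kb and held 36 of its 41 regions, with only 1 distal acetylated peak. Its RNA was 40.1 and 45.8 FPKM in resting and 27.7 and 22.1 FPKM in activated samples. The activated values were lower in both replicates (log2 change -0.77, SE 0.18, limma adjusted p = 0.0126, and 0.0893 without resting replicate 2).

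Phip had 38 regions, 22 of them inside its locus of 109 kb and 16 outside, beside 2 acetylated peaks. Its RNA was 25.6 and 30 FPKM in resting and 35.1 and 25.9 FPKM in activated samples, and the groups overlapped (limma adjusted p = 0.641). St8sia4, which encodes a polysialyltransferase, had 29 regions and 42.8, 54.7, 51.1 and 65.2 FPKM in the same order, which also overlapped (adjusted p = 0.354, limma). Camk2d, a calcium-dependent kinase gene, had 25 of its 28 regions inside the locus, with 29.4 and 27.5 FPKM in resting and 24.5 and 21.9 FPKM in activated samples. Its groups did not overlap, but the test was not passed (adjusted p = 0.168, limma), except under quantile normalization (0.0487).

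Bank1 had 26 of its 27 regions inside a locus of 273 kb at chr3:135716328-135989010, and 15 acetylated peaks. Its RNA was 162 and 152 FPKM in resting and 54.0 and 38.7 FPKM in activated samples, 3.38-fold lower on the scale of FPKM + 1 (log2 change -1.76, SE 0.22, limma adjusted p = 0.00102). Ralgps2, which encodes an exchange factor of Ral GTPases, had 20 regions in its locus and went from 89.4 and 86.2 FPKM to 27.3 and 24.4 FPKM (log2 change -1.73, SE 0.17, limma adjusted p = 0.000381). Both were lower in each activated sample than in each resting one.

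Btg1 differed in its layout. This antiproliferative gene of quiescent lymphocytes spans only 5.81 kb, and all of its 25 regions lay outside, up to 278652 bases away. Its RNA was 134 and 125 FPKM in resting and 49.3 and 19.3 FPKM in activated samples (limma adjusted p = 0.00594, and 0.0531 without resting replicate 1). The activated replicates were unlike each other, at 34.3 ± 21.2 FPKM (SD, n = 2). Foxp1, a forkhead factor gene of B cell development and quiescence, held 23 regions in a locus of 510.0 kb, beside 28 acetylated peaks. It had 61.2 and 60.3 FPKM in resting and 33.7 and 38.6 FPKM in activated samples (limma adjusted p = 0.0119, and 0.0851 and 0.0732 without resting replicate 1 and 2). Dennd1b, which encodes a regulator of Rab GTPases, held 17 regions and had 13.4 and 14.9 FPKM in resting against 6.73 and 9.81 FPKM in activated samples. Its call (limma adjusted p = 0.0198) was lost without either resting replicate (0.0659 and 0.104).

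Genes with many unmarked regions also rose. Fut8, the fucosyltransferase of N-glycan cores, had 24 regions, 16 of them outside the gene. Its RNA went from 4.54 and 6.62 FPKM in resting to 29.3 and 31.6 FPKM in activated samples, 4.84-fold higher on the scale of FPKM + 1 (log2 change 2.27, SE 0.19, limma adjusted p = 0.000211). Atf6, a sensor of unfolded protein in the endoplasmic reticulum, held 20 regions in its locus at chr1:172634588-172797902. It had 15.7 and 13.8 FPKM in resting and 51.3 and 54.3 FPKM in activated samples (log2 change 1.78, SE 0.16, limma adjusted p = 0.000264). Prkca, the gene of protein kinase C alpha, held 23 regions, with 4 and 3.39 FPKM in resting and 6.76 and 7.47 FPKM in activated samples (limma adjusted p = 0.00672, and 0.0704 without resting replicate 2). Pou2f1, which encodes the octamer-binding factor Oct-1, also held 20 regions but went the other way. It had 14.3 and 12.8 FPKM in resting and 8.24 and 10.6 FPKM in activated samples. Its call (limma adjusted p = 0.0459) was lost without either resting replicate (0.240 and 0.119) and without activated replicate 1 (0.133).

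**Figure D5:**
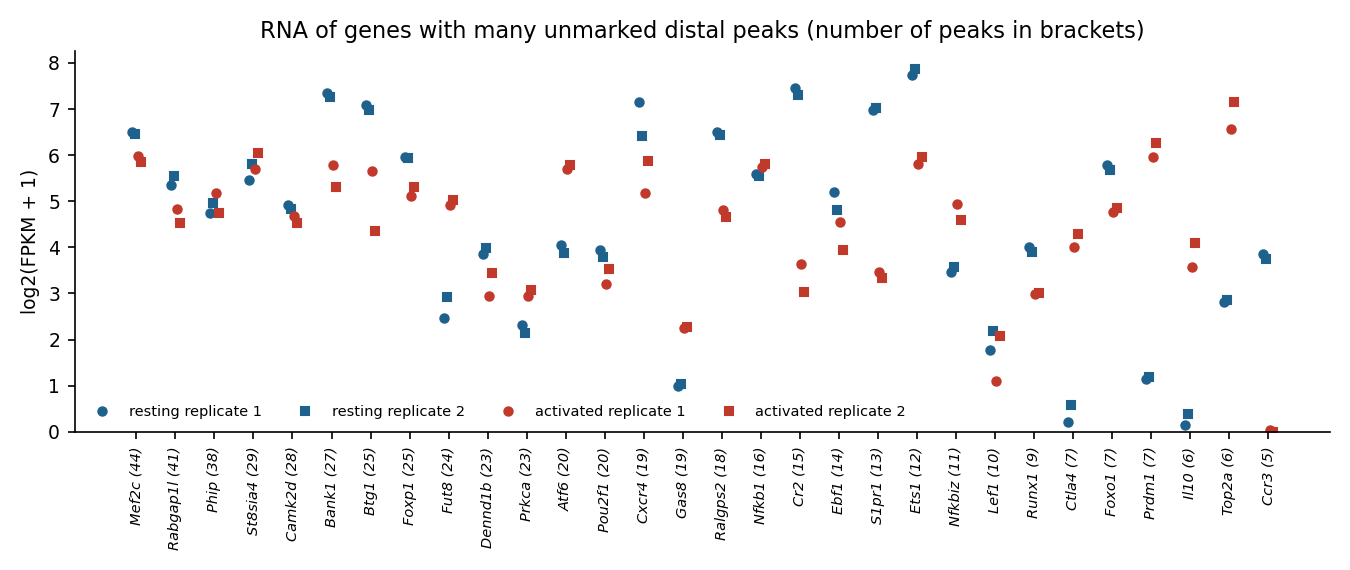
RNA level as log2(FPKM + 1) in the 2 resting (blue) and 2 activated (red) samples for the 30 tested genes with the most unmarked distal regions among those named, with the number of regions in brackets. Bank1, Cr2, S1pr1 and Ralgps2 lie lower in both activated samples, and Fut8, Atf6, Prdm1 and Top2a higher.

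Genes of the B cell programme were then read by lists. For this and the following lists, the background is that 8701 of all 23812 genes, and 5395 of the 10863 tested, had an unmarked region. Of 15 transcription factors of B cell identity, 14 had at least 1 unmarked region and together they had 83. All 15 were tested and 9 were lower and 0 higher in activated cells with limma (10 lower and 0 higher at an unadjusted p under 0.05). The shares of all genes tested were 26.2% lower and 28.2% higher. Among the 14 factors with an unmarked region 8 were lower and 0 higher. The median log2 change of the 15 was -0.92 against 0.03 for all genes. Ebf1, a factor that specifies the B lineage, had 14 regions, 12 of them in its locus. Its RNA was 35.9 and 26.9 FPKM in resting and 22.3 and 14.4 FPKM in activated samples (limma adjusted p = 0.0369, lost without resting replicate 1 at 0.192 and without activated replicate 2 at 0.138). Ets1 had 12 regions, 9 of them outside as far as 337862 bases, and went from 214 and 233 FPKM to 55.2 and 60.8 FPKM (limma adjusted p = 0.000422). Runx1 had 9 regions and went from 15.2 and 13.9 FPKM to 6.95 and 7.10 FPKM (limma adjusted p = 0.00200). Foxo1, a factor held in check by growth signals, had 7 regions, all outside, and went from 54.4 and 49.9 FPKM to 26.2 and 27.9 FPKM (limma adjusted p = 0.00381). Lef1 had 10 regions at 2.42 and 3.53 FPKM in resting and 1.15 and 3.23 FPKM in activated samples, which overlapped (limma adjusted p = 0.348).

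Genes of the mature B cell surface and of homing had 58 regions, at 10 of 15 genes. All 15 were called lower in activated cells with limma, the 10 with an unmarked region among them, beside 26.2% of all genes tested. The median log2 change of the 15 was -1.37 against 0.03 for all genes. Cr2, which encodes a receptor for complement fragments, had 15 regions, 12 of them outside its locus as far as 121197 bases, beside 2 acetylated peaks. Its RNA was 174 and 158 FPKM in resting and 11.5 and 7.18 FPKM in activated samples, 16.5-fold lower on the scale of FPKM + 1 (limma adjusted p = 6.87e-05). S1pr1, the receptor that lets lymphocytes leave the spleen and lymph nodes, had 13 regions, all outside, and went from 126 and 129.6 FPKM to 9.99 and 9.14 FPKM (limma adjusted p = 4.02e-05). Cxcr4, a chemokine receptor gene of 4.10 kb, had 19 regions, all outside as far as 283005 bases, and 7 of them lay in a Hi-C anchor. It had 142 and 84.9 FPKM in resting and 35.3 and 57.9 FPKM in activated samples, and its call (limma adjusted p = 0.0172) was lost without resting replicate 1 (0.0970) and without activated replicate 1 (0.0633). Ccr7, a homing receptor gene, had 4 regions and went from 107 and 112 FPKM to 65.5 and 33.2 FPKM (limma adjusted p = 0.0173, and 0.0604 and 0.0630 without resting replicate 1 and 2).

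The plasma cell list had 22 unmarked regions, at 9 of 14 genes, with a median of 1 per gene as in the mature surface, NF-kB and cytokine lists. Of the 14 genes 13 were higher and 0 lower in activated cells with limma (13 and 0 at an unadjusted p under 0.05). The shares of all genes tested were 28.2% higher and 26.2% lower. Among the 9 genes with an unmarked region 8 were higher and 0 lower. The median log2 change of the 14 was 3.14 against 0.03 for all genes. Prdm1, the gene of the repressor Blimp-1 that drives plasma cell differentiation, had 7 regions, 6 of them outside as far as 270285 bases, beside 12 acetylated peaks. Its RNA was 1.23 and 1.26 FPKM in resting and 61.3 and 75.8 FPKM in activated samples (log2 change 4.94, SE 0.16, limma adjusted p = 1.58e-05). Slamf7, a surface receptor of plasma cells, had 5 regions and went from 22.8 and 17.6 FPKM to 29.7 and 32.4 FPKM (limma adjusted p = 0.0275), a call lost without resting replicate 2 (0.219), without activated replicate 2 (0.0758), under quantile normalization (0.0782) and with no filter (0.0552). Cd28, a costimulatory receptor, had 3 regions at 0.124 and 0.566 FPKM in resting and 2.09 and 1.55 FPKM in activated samples (limma adjusted p = 0.00496, and 0.0536 without resting replicate 1).

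Of 15 NF-kB and Toll-like receptor genes, which carry the LPS signal, 10 had an unmarked region and 42 regions were counted. In this list 3 of 15 tested genes were higher and 5 lower, near the 28.2% and 26.2% of all genes, with a median log2 change of -0.32 against 0.03. Nfkb1, a subunit of NF-kB, had 16 regions, 11 of them in its locus, at 47.3 and 45.6 FPKM in resting and 52.4 and 54.6 FPKM in activated samples (limma adjusted p = 0.348). Its groups did not overlap, and the sign of its small change turned under quantile normalization. Nfkbiz, a nuclear regulator of NF-kB targets, had 11 regions and went from 9.99 and 10.8 FPKM to 29.7 and 23.0 FPKM (limma adjusted p = 0.00145). Tnfaip3, which encodes the inhibitor A20, had 4 regions and went from 16.3 and 14.6 FPKM to 47.6 and 40.3 FPKM (limma adjusted p = 0.000707). Irak3, an inhibitor of Toll-like receptor signalling, had 3 regions at 14.5, 13.7, 11.2 and 9.14 FPKM in the same order (limma adjusted p = 0.0545).

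Cytokine and cytokine receptor genes had 23 regions at 11 of 15 genes. Of 12 tested genes 6 were higher and 5 lower, beside 28.2% and 26.2% of all genes, with a median log2 change of 0.35 against 0.03. Il10, an anti-inflammatory cytokine gene, had 6 regions, all outside within 40063 bases, and went from 0.1 and 0.307 FPKM to 10.9 and 16.0 FPKM (limma adjusted p = 8.05e-05). Il6 had 3 regions, was listed at 0 and 0.0633 FPKM in resting and reached 14.6 and 5.07 FPKM in activated samples (limma adjusted p = 0.00198). Vegfa, a growth factor gene of blood vessels, had 4 regions, all outside as far as 135983 bases, and went from 0.592 FPKM in both resting samples to 44.3 and 40.1 FPKM (limma adjusted p = 1.16e-05).

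By size, the largest rises among called genes with at least 3 unmarked regions included those at Prdm1, Vegfa, Alpl, Top2a, Ctla4, Sec24d and Il10. Top2a, the topoisomerase of dividing cells, had 6 regions and no acetylated peak, and 3 of the regions were in a Hi-C anchor. Its RNA went from 6.03 and 6.23 FPKM to 94.0 and 141 FPKM (limma adjusted p = 6.21e-05). Ctla4, an inhibitory receptor gene, had 7 unmarked and 7 acetylated regions and no FAIRE peak near H3K4me3, and went from 0.162 and 0.498 FPKM to 15.2 and 18.5 FPKM (limma adjusted p = 5.65e-05). Sec24d, of the COPII coat, and Alpl, an alkaline phosphatase gene, had 3 regions each and were 11.9-fold and 20-fold higher on the scale of FPKM + 1.

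The 8 largest falls were at Faim3, Sirpa, Cr2, Ccr3, Cd55, Abcg3, Emr1 and Tgm2. Faim3, the Fc receptor of IgM, had all of its 3 regions in the locus and went from 483 and 436 FPKM to 19.8 and 9.93 FPKM (limma adjusted p = 8.55e-05). Cd55, a complement regulator, had 3 regions and went from 175 and 179 FPKM to 15.6 and 8.98 FPKM (limma adjusted p = 0.000105). Sirpa, a receptor typical of myeloid cells, had 3 regions and went from 38.5 and 39.3 FPKM to 0.710 and 0.948 FPKM (limma adjusted p = 1.74e-05). Emr1, which encodes the macrophage protein F4/80, had 4 regions and went from 14.1 and 16.8 FPKM to 0.154 and 0.337 FPKM (limma adjusted p = 4.51e-05). Ccr3, a chemokine receptor, had 5 regions and went from 13.0 ± 0.789 FPKM (SD, n = 2) in resting samples to 0.0254 FPKM and a listed 0 in activated ones (limma adjusted p = 3.40e-05). Tgm2, a transglutaminase gene, and Abcg3, a transporter gene, were 13.1-fold and 13.5-fold lower on the scale of FPKM + 1. Summed myeloid markers, a list that includes Emr1 itself, also fell, from 387 and 737 FPKM in resting to 2.88 and 9.35 FPKM in activated samples. Not every marker on that list did: Itgam stood at 1.61 and 2.77 FPKM in resting and 2.26 and 2.07 FPKM in activated samples. Lyz2 was not called (limma adjusted p = 0.0657). The part of myeloid cells in the falls of the named genes was not tested.

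Unmarked regions were also found at genes that B cells barely transcribe. Of 25 cell adhesion genes of neurons, mostly very long genes, 14 had a region and 35 regions were counted. None of the 25 passed the filter for testing, and 2 had a distal acetylated peak. Dlg2, a synaptic scaffold gene with a locus of 1358 kb, had 8 regions and no other FAIRE peak, at 0.333 and 0.542 FPKM in resting and 0.0327 FPKM and a listed 0 in activated samples. Cntnap2, a neuronal adhesion gene, had 4 regions and was listed at 0 in 3 samples and at 0.0484 FPKM in activated replicate 1. Olfactory and vomeronasal receptor genes, of which 1462 were matched, had 116 regions at 81 genes. That is a smaller share than the 8701 nearest genes among all 23812 genes.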

How the data were processed

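Per the submitters' processing notes the tools were Bowtie2, Bowtie, HOMER, bedtools, TopHat2 and STAR on build mm9, with roles and versions not given in the sources used here. The peak lists hold positions with no score, 1 list per assay, and the labels name them under replicate 1 (FAIRE-seq, ChIP-seq) or the 12 h and 24 h runs (STARR-seq). In the FAIRE list 7 duplicate rows were dropped, and 3 peaks were not 301 bases wide. The RNA values were deposited by the authors with 1 value per gene and sample and no named unit per the file headers. They were treated as FPKM, as deposited, because they are not whole and their sums differ (244602 to 287884 per sample). No read totals are given. Steps of low values gave depths relative to resting replicate 1 of 0.973 (resting replicate 2), 0.722 and 1.16 (activated replicates 1 and 2). Reads of overlapping, antisense or near-identical genes cannot be told apart.

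The test was limma 3.58.1 (trend, robust, R 4.3.3) on log2(FPKM + 1) of genes reaching 1 FPKM in 2 or more libraries, 2 activated against 2 resting samples, with no block. The scale understates changes of low genes. The script was tested on simulated data. Each region was given the gene locus at the smallest distance, and lists are described by counts and medians with no set test. Gene strand came by symbol from a RefSeq promoter table (GRCm38.p6, no coordinates used) and was added after the files were seen. For tested genes of 5 kb or more, H3K4me3 lay within 1 kb of the start in 89.7% and of the end in 5.24%. Coordinates are 1-based on mm9.

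The members, gene lists and tests were chosen with earlier results of these data known. Named genes were the 10 with the most regions inside the locus, the 10 tested ones with the most regions as nearest gene, the 8 largest rises and 8 largest falls among called genes with at least 3 regions and groups that did not overlap, up to 5 genes with at least 3 regions per programme list, the genes at the 3 runs with the most regions, and 3 regions each farthest from genes and from FAIRE peaks. Immunoglobulin and T cell receptor segments, small RNA genes, predicted names and the 265 symbols on more than 1 row were not named. Some genes that this rule names are withheld and not reported here. The alternatives were a pseudocount of 0.1, no filter, a filter at 5, quantile normalization, a replicate block, leaving out each replicate, other rules for the nearest gene, and other distances, merging and list order for the regions.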

Additional observations from a re-analysis of the deposited data

How the results depend on the processing

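The number of unmarked distal regions stayed within 1.5 times of 19989 at 2 kb or 5 kb from H3K4me3, at 1 kb from every H3K27ac and STARR peak, with FAIRE peaks within 500 bases merged, and in the second part of the list order. The first part of the order held 5011 regions. The share inside a gene was 47.8% in the first part of the order, 55.5% in the second and 52.8% by peak centre. Every alternative kept fewer regions and gave a larger median gap, but the gap did not simply follow the number kept. It was 13867 bases at 2 kb and 15622 bases at 5 kb from H3K4me3 (16503 regions). At 1 kb from both other lists it was 16261 bases (17457 regions), and after merging 15266 bases. In the first and second part of the order it was 53069 and 18149.5 bases. Called genes ran from 2964 to 5693 when 1 RNA replicate was left out, nearest genes called higher from 864 to 1395 and lower from 684 to 1484, with the lowest values without a resting replicate. For genes with 10 or more unmarked regions the same ranges were 21 to 27 higher and 34 to 64 lower. With the nearest gene taken among tested genes only, 98 such genes of 263 were lower and 57 higher. With a limit of 50 kb, 45 of 110 were lower and 22 higher. With a replicate block 6281 genes were called against 5910, and the call of Irak3 was gained (adjusted p = 0.0378, limma). The replicate numbers are shared labels only, with a correlation of deviations of 0.124. Of 46 named genes tested, the log2 change turned sign for Nfkb1 (-0.0616), Phip (-0.06) and St8sia4 (-0.0099) under quantile normalization, and no call went with it. Leaving out a replicate moved Phip between -0.0939 and 0.3288 and Lef1 between -0.8755 and 0.1019, and Lef1 was called without activated replicate 2 (adjusted p = 0.0270, limma). Quantile normalization ended the call of Slamf7 and added calls for Camk2d and Irak3. With no filter 6 of the 46 lost their call (Ccr7, Cxcr4, Dennd1b, Ebf1, Pou2f1 and Slamf7), and without resting replicate 1 and 2 calls were lost for 9 of 42 and 8 of 42, the cause not being tested. The number of RNA samples, 2 per group, limits the precision, and peak lists have no replicate.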
